A study of Mus musculus with 10 samples.

Results

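Complement is a cascade of plasma and tissue proteins that tags microbes and damaged cells, recruits leukocytes and can punch pores in membranes. The 9 genes described here were listed by name: the proteases and components C1ra, C2, C3, C4b and Cfb, the anaphylatoxin receptors C3ar1 and C5ar1, and the membrane regulators Cd55 and Cd59a. Of these 9, 8 were measured among the 22180 genes of the series, each by 1 probe set that names that gene alone, and C3 was not analysed here. They were compared in subepithelial tracheal mesenchyme of male FVB/NJ mice aged 9 weeks. One group of 5 mice had breathed 235 ppm chlorine over the whole body for 1 hr and was sampled 4 days later, and the other 5 mice were unexposed. Tissue lifted by laser from stained frozen sections was combined within each mouse, and its RNA was hybridised to 1 array per mouse. The question set by the series title is which genes differed while fibrotic lesions were forming.

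The cascade is started along the classical route by C1q with its proteases C1r and C1s, and along the lectin route by sugar-binding proteins with MASP proteases. The alternative route runs through factor B, the product of Cfb. All routes meet at C3, and cleavage of C3 and C5 frees the small peptides C3a and C5a, which act on the receptors encoded by C3ar1 and C5ar1. The liver makes most plasma complement, but macrophages, fibroblasts and airway epithelium make components locally, while myeloid cells carry most of the receptors. CD55 speeds the decay of the enzymes that cleave C3 and C5, and CD59 blocks assembly of the membrane pore.

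At 4 days after chlorine, the dissected tissue held more transcript of C4b and of both anaphylatoxin receptors, and less of Cd55 and Cfb. C3ar1 was 3.45-fold higher, C5ar1 2.70-fold and C4b 2.49-fold, while Cd55 was 1.57-fold and Cfb 1.45-fold higher in unexposed mice. In unexposed mice both receptors lay near the array medians (5.10 to 5.18, log2), so the size of their changes is uncertain. C1ra, C2 and Cd59a did not pass the test. Thus 3 of the 8 measured genes rose and 2 fell, where 5.85% of all genes were called higher and 4.97% lower (limma, Benjamini-Hochberg adjusted p under 0.05, with 5 mice per group). The median log2 change of the 8 genes was 0.29, beside -0.0035 over all genes tested. All changes are exposed minus unexposed on the log2 scale of the array intensities.

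The arrays were alike in level, with median log2 values of 5.10 to 5.18, and Pearson's r over genes (not independent replicates) was 0.982 to 0.986 within the unexposed, 0.947 to 0.983 within the exposed and 0.928 to 0.972 between the groups. The fibroblast markers that define the labelled tissue were present throughout, with Dcn, a matrix proteoglycan, at 11.91 to 12.29 in all 10 mice. Airway epithelial transcripts were present as well, since the summed intensity of 5 secretory markers was 14.65 to 14.70 (log2) in unexposed mice. In exposed mice that sum ran from 7.86 in mouse 3 to 14.29 in mouse 1, so exposed mouse 3 stood apart. The array scale has no true zero and no detection limit was at hand, so low values are not read as absence.

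The promoters of C3ar1, which showed the largest change of the 8 genes, and of C1ra, whose change was nearest to 0, are shown for comparison. Each is the 250 bases next to the gene's boundary in RefSeq GRCm38.p6, on the minus strand of chr6:122856158-122856407 for C3ar1 and the plus strand of chr6:124512371-124512620 for C1ra. Capitals mark matches to the motifs searched.
C3ar1: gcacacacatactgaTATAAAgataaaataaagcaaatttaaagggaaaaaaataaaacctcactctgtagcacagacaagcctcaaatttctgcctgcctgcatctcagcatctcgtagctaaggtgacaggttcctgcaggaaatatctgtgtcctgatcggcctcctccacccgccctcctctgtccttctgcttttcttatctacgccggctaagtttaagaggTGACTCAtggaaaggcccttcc
C1ra: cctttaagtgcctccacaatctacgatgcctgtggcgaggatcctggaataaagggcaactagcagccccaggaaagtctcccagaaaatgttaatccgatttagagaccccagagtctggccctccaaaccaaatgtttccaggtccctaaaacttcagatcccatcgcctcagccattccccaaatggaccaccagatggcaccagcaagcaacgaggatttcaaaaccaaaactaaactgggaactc

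The motifs were searched on both strands in windows of the same length of 32851 promoters. They were TGANTCA for AP-1 (in 6.75% of all promoters), GAGGAA for PU.1 (23.3%), TTGCNNAA for C/EBP (9.56%) and TATAAA (12.4%). C3ar1 held the AP-1 letters as TGACTCA, starting 22 bases before the gene, and TATAAA starting 235 bases before it. None of these letters stood in the C1ra window. C3ar1 held 45.6% G and C and C1ra 49.6%, beside a median of 52.4% over all promoters. A match describes letters only. The promoters of the other members were not used here.

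**Figure D1:**
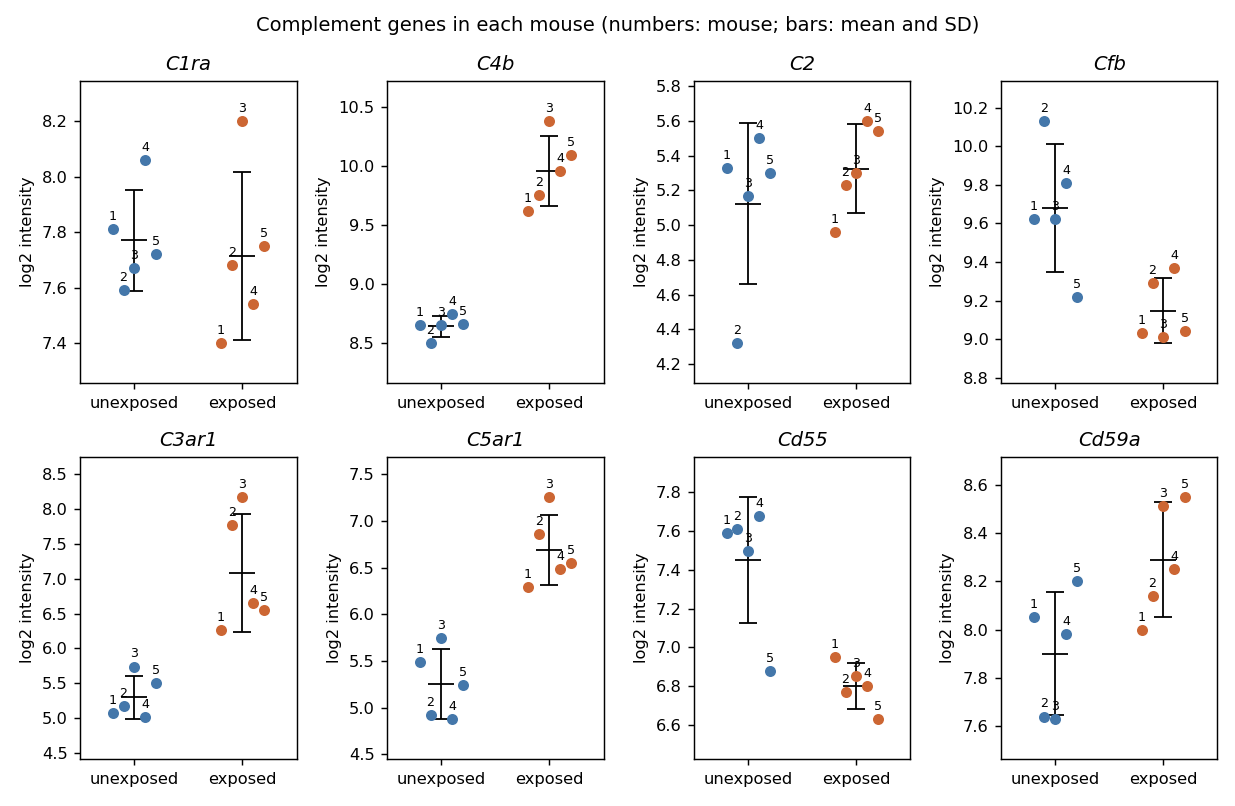
Log2 intensity of each measured complement gene (vertical axis) in the 5 unexposed (blue) and 5 exposed (orange) mice, numbered by mouse, with bars for mean and SD; each panel has its own axis, which does not start at 0. Every exposed point of C4b, C3ar1 and C5ar1 lies above every unexposed point, while Cd55 overlaps only through unexposed mouse 5 at 6.88.

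Of the 4 listed components that were measured (C1ra, C2, C4b and Cfb), C4b rose. Its product is cleaved by C1s or MASP-2 to leave C4b on the target surface, a subunit of the classical and lectin C3 convertase. The log2 intensity of C4b was 8.65, 8.50, 8.65, 8.75 and 8.66 in unexposed mice 1 to 5 and 9.62, 9.75, 10.38, 9.96 and 10.09 in exposed mice 1 to 5. The groups did not overlap, as for 5.89% of all genes in that direction, and the lowest exposed value, in mouse 1, stood well above the highest unexposed one. The means were 8.64 ± 0.092 and 9.96 ± 0.30 (SD, n = 5 each), a log2 change of 1.32 (SE 0.14, limma adjusted p = 0.000158). With 1 mouse left out at a time, the adjusted p of C4b was 0.000108 to 0.000787. C4a, its close paralog, has a probe set of its own and ranged from 4.25 to 4.80 after exposure and from 3.20 to 4.31 without it. Its log2 change was 0.69 (adjusted p = 0.0464), and of the 10 fits without 1 mouse only that without unexposed mouse 3 kept its call (adjusted p 0.0228 to 0.110). Array probes may not fully separate C4a from C4b, so the value of each is uncertain.

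The partner of C4b in that convertase, C2, did not pass. C2 stood at 5.33, 4.32, 5.17, 5.50 and 5.30 in unexposed mice 1 to 5 and at 4.96, 5.23, 5.30, 5.60 and 5.54 in exposed mice 1 to 5. The groups overlapped, and unexposed mouse 2 was the lowest of all. The log2 change was 0.20 (95% interval -0.26 to 0.66, adjusted p = 0.632), and without unexposed mouse 2 it was -0.0013. C1ra, which encodes the protease that activates C1s inside the C1 complex, ranged over 7.59 to 8.06 in unexposed and 7.40 to 8.20 in exposed animals, with exposed mouse 3 highest and exposed mouse 1 lowest. It changed by -0.056 (95% interval -0.38 to 0.27, adjusted p = 0.873), and turned above 0 without exposed mouse 1 or unexposed mouse 4 (0.024 and 0.018). The intervals of C2 and C1ra leave out a change in array intensity as large as that of C4b. C2 lay near the array medians, so the size of its change is uncertain.

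Cfb, which encodes a serine protease of the alternative route, went the other way. Its values were 9.62, 10.13, 9.62, 9.81 and 9.22 in unexposed mice 1 to 5 and 9.03, 9.29, 9.01, 9.37 and 9.04 in exposed mice 1 to 5. The groups overlapped through unexposed mouse 5, the lowest of its group, and 3 of 5 exposed mice lay below every unexposed mouse. Cfb fell by 0.53 on the log2 scale, from 9.68 ± 0.33 to 9.15 ± 0.17 (SD, n = 5 each; SE 0.16, limma adjusted p = 0.0497). The call is at the edge of the threshold: of the 10 fits with 1 mouse left out, 9 lost it and that without unexposed mouse 5 kept it, with adjusted p from 0.0163 to 0.111. It was also lost with arrays centred on their medians (adjusted p = 0.0588).

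Cfb and C2 are related serine proteases that lie next to each other on chromosome 17 in RefSeq GRCm38.p6. The difference Cfb minus C2 within each array lay between 3.92 and 5.80 in unexposed animals and between 3.50 and 4.07 in exposed ones. It was lower by 0.73 in exposed mice (interval from the exact test -1.51 to -0.15, exact permutation p = 0.0238, adjusted p = 0.0357 over 3 pairs, two-sided, n = 5 per group). The groups overlapped in this difference, and it became -0.42 without unexposed mouse 2 (adjusted p = 0.0714). The call was also lost when any 1 of the exposed mice was dropped (adjusted p 0.0595 to 0.0952). Such a difference shows unequal change in array intensity and not which gene moved, and C2 lay near the array medians.

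**Figure D2:**
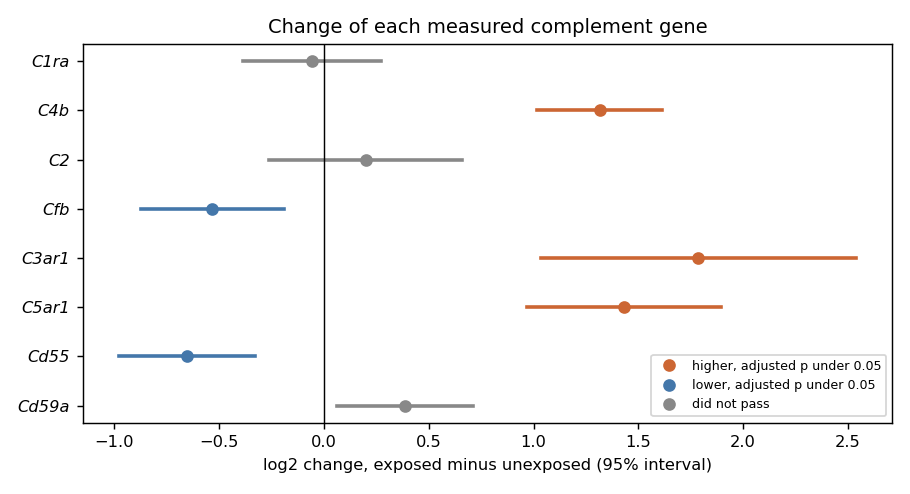
Log2 change, exposed minus unexposed, of each measured complement gene (points) with its 95% interval from the limma fit, not adjusted for the number of genes (bars); orange rose, blue fell and grey did not pass. C4b (1.32), C5ar1 (1.43) and C3ar1 (1.79) lie to the right of 0, and Cfb (-0.53) and Cd55 (-0.65) to the left.

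Both anaphylatoxin receptors rose. C3ar1 encodes the G protein-coupled receptor for C3a, found on macrophages, neutrophils, mast cells and other cells. It was measured at 5.07, 5.17, 5.74, 5.01 and 5.50 in unexposed mice 1 to 5 and at 6.26, 7.78, 8.18, 6.65 and 6.55 in exposed mice 1 to 5. Exposed mice 2 and 3 stood highest, and the exposed mouse with the lowest value, mouse 1, still exceeded every unexposed mouse. The log2 change was 1.79 (SE 0.34, limma adjusted p = 0.00656), from 5.30 ± 0.31 to 7.09 ± 0.84 (SD, n = 5 each). It was between 1.51, without exposed mouse 3, and 1.99, without exposed mouse 1.

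C5ar1 encodes the receptor for C5a, a strong attractant of neutrophils and monocytes. Its log2 intensity was 5.49, 4.92, 5.75, 4.88 and 5.24 in unexposed mice 1 to 5 and 6.29, 6.86, 7.26, 6.49 and 6.55 in exposed mice 1 to 5. Here too exposed mice 3 and 2 were highest, exposed mouse 1 was lowest of its group, and the groups did not overlap. C5ar1 rose by 1.43 (SE 0.21, limma adjusted p = 0.00139), from 5.26 ± 0.37 to 6.69 ± 0.38 (SD, n = 5 each). The changes of the receptors were not shown to differ: C3ar1 minus C5ar1 was higher by 0.35 in exposed mice (interval from the exact test -0.20 to 1.00, exact permutation p = 0.238, adjusted p = 0.238, n = 5 per group). C5ar2, the other C5a receptor and the neighbour of C5ar1 on chromosome 7, overlapped between groups (4.91 to 5.69 exposed, 5.05 to 5.48 unexposed) and changed by 0.039 (adjusted p = 0.911).

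Markers of myeloid cells moved with the receptors. Of 6 macrophage markers 4 rose and 0 fell, and their summed intensity (log2) lay between 10.26 and 11.61 after exposure, against 9.16 to 9.94 without it. Adgre1, 1 of these 4, lost its call in 5 of the 10 fits without 1 mouse, when exposed mouse 2 or unexposed mouse 1, 3, 4 or 5 was dropped (adjusted p up to 0.0716). Within the exposed group that sum was highest in mice 3 (11.61) and 2 (11.29) and lowest in mouse 1 (10.26), as both receptors were. This order was not particular to myeloid markers. The fibroblast sum was also highest in exposed mice 3 (13.84) and 2 (13.67) and lowest in mouse 1 (13.31). The endothelial sum was highest in mouse 3 (10.47) and lowest in mouse 1 (9.42), while the pan-epithelial sum was highest in mouse 1 (11.92) and lowest in mouse 3 (11.22). The macrophage sum leans on its brightest marker in these mice, Cd68. Mrc1 and Adgre1 were also highest in exposed mice 3 and 2. Cd163 was instead highest in exposed mouse 5 (8.30, beside 7.27 in mouse 2), and Csf1r and Mertk were higher in mouse 5 than in mouse 2. The neutrophil markers S100a8 and S100a9 rose among 6 measured, 0 fell, and the sum of the list lay between 7.73 and 9.80 after exposure, against 6.81 to 7.29 without it. S100a9 lost its call when exposed mouse 2 or 4 or unexposed mouse 1 or 5 was dropped (adjusted p up to 0.0624). Ly6g, a defining neutrophil marker, ranged from 2.60 to 3.93 after exposure and from 2.71 to 3.15 without it, and changed by 0.29 (adjusted p = 0.457). The part of these cells in the receptor values was not tested, and in bulk tissue more cells of a type and more RNA per cell cannot be told apart.

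**Figure D3:**
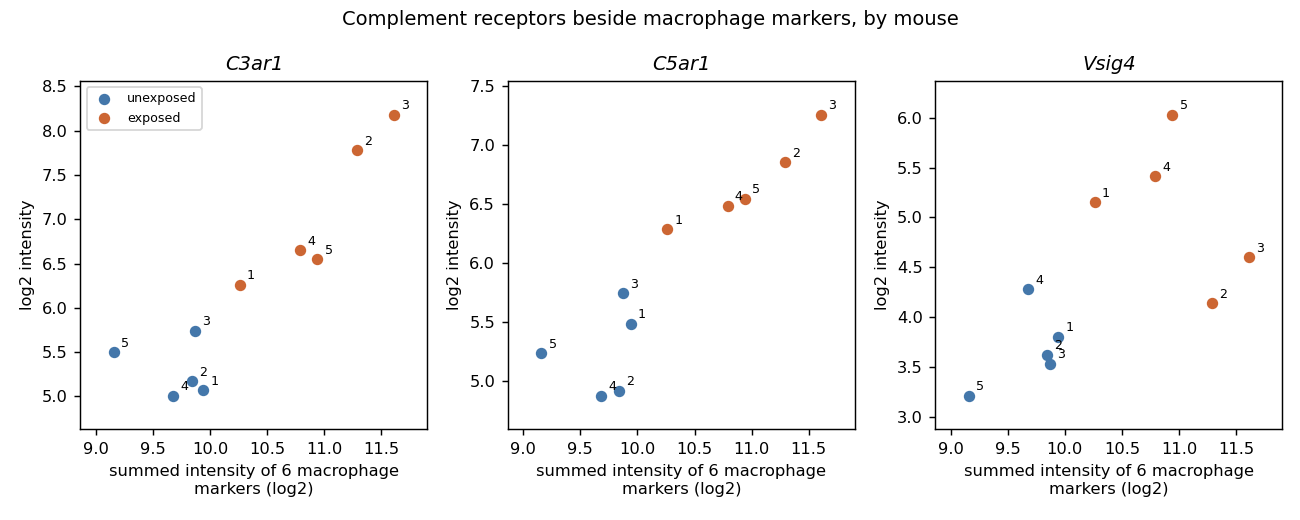
Log2 intensity of C3ar1, C5ar1 and Vsig4 (vertical axes, which do not start at 0) against the log2 summed intensity of 6 macrophage markers (horizontal axis), with 1 numbered point per mouse in blue for unexposed and orange for exposed. Exposed mice 2 and 3 are highest in C3ar1, C5ar1 and the macrophage sum but lowest of the exposed mice in Vsig4 (4.14 and 4.60).

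The membrane regulators among the members, Cd55 and Cd59a, parted. Cd55, whose product dissociates the convertases on the cell's own surface, was 7.59, 7.61, 7.50, 7.68 and 6.88 in unexposed mice 1 to 5 and 6.95, 6.77, 6.85, 6.80 and 6.63 in exposed mice 1 to 5. The exposed values lay close together, and 4 of 5 were below every unexposed mouse. No member, Cfb and Cd55 included, was lower without any overlap, as 5.06% of all genes were. The overlap came from unexposed mouse 5 alone, which stood well under the rest of its group. Cd55 fell by 0.65 on the log2 scale, from 7.45 ± 0.33 to 6.80 ± 0.12 (SD, n = 5 each; SE 0.15, limma adjusted p = 0.0158), and by 0.80 without unexposed mouse 5. Its adjusted p stayed between 0.000951 and 0.0436 over the 10 fits without 1 mouse. Tested against a 1.2-fold change it did not pass (adjusted p = 0.174).

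Cd59a, which encodes the inhibitor of pore assembly, was 8.05, 7.64, 7.63, 7.98 and 8.20 in unexposed mice 1 to 5 and 8.00, 8.14, 8.51, 8.25 and 8.55 in exposed mice 1 to 5. The groups overlapped, with 3 of 5 exposed mice above every unexposed one. Its log2 change was 0.39 (95% interval 0.062 to 0.71, unadjusted p = 0.0236, limma adjusted p = 0.129). The changes of these regulators differed: Cd55 minus Cd59a lay between -1.32 and -0.03 in unexposed animals and between -1.92 and -1.06 in exposed ones, lower by 1.04 in the latter (interval from the exact test -1.62 to -0.36, exact permutation p = 0.0159, adjusted p = 0.0357, n = 5 per group). With 1 mouse left out this pair lost its call in 5 of the 10 fits, namely when any of exposed mice 2 to 5 or the unexposed mouse 2 was dropped, with differences of -1.07 to -0.93 (adjusted p up to 0.0714). The neighbouring paralogs Cd55b and Cd59b changed by 0.12 (adjusted p = 0.797) and 0.16 (adjusted p = 0.600), and array probes may not fully separate such copies. Among other listed regulators, Cr1l changed by -0.14 (limma adjusted p = 0.411) and Cd46 by -0.50 (limma adjusted p = 0.0778), and neither passed.

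Epithelial markers are given beside Cfb and Cd55 because airway epithelium can express both. Of 6 pan-epithelial markers 0 rose and 0 fell, and their summed intensity overlapped between groups (11.22 to 11.92 exposed, 11.38 to 11.80 unexposed). The basal list was split, with 2 of 4 measured markers called higher and 0 lower. Krt14 rose by 4.31 (adjusted p = 6.77e-06) and Dsg3 by 3.96 (adjusted p = 4.4e-05). Krt15 changed by -0.52 (adjusted p = 0.581) and Trp63 by -0.40 (adjusted p = 0.506), and neither passed. The basal sum was 11.33 in exposed mouse 3 and 12.44 to 12.71 in the other exposed mice, against 11.07 to 11.64 in unexposed mice. The ciliated sum was lower in every exposed mouse (6.41 to 10.04, against 10.45 to 11.04), and so was the secretory sum. In exposed mouse 3, lowest in the secretory sum (7.86), Cfb was 9.01 and Cd55 6.85, beside 9.03 to 9.37 and 6.63 to 6.95 in the other exposed mice. In a fit that took the mean of the 6 pan-epithelial markers as a covariate, Cfb changed by -0.52 (adjusted p = 0.0436) and Cd55 by -0.65 (adjusted p = 0.0145). The median change of those markers was -0.013, so such a fit can move these estimates only a little. It held no marker from the basal, secretory or ciliated lists. The part of the basal, secretory and ciliated cells was not tested.

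Beyond these 8 genes, 45 of 50 listed genes of the pathway were measured, of which 11 rose, 1 fell and 33 did not pass. That is 24.4% higher and 2.22% lower, beside 5.85% and 4.97% of all genes, with a median log2 change of 0.12. By role, 6 of 15 measured initiation genes rose, 2 of 8 receptors, 1 of 7 terminal components, 1 of 14 regulators and the 1 measured gene of the alternative route. The share of regulators that rose, 7.14%, is near that of all genes, and no test of one role against another was made.

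The recognition proteins of the classical route rose together. C1qa, C1qb and C1qc, the chains of C1q made chiefly by macrophages, rose by 1.01 (adjusted p = 0.000577), 0.86 (adjusted p = 0.00687) and 0.75 (adjusted p = 0.00401). C1qa ranged from 7.87 to 8.27 after exposure and from 6.79 to 7.35 without it, and neither C1qb nor C1qc overlapped between groups. Of the lectin route, Fcna, a ficolin that binds sugars, rose by 0.90 (adjusted p = 0.0016), from a range of 5.09 to 5.65 to one of 6.05 to 6.49. Masp1, a protease bound to such lectins, rose by 1.07 (adjusted p = 0.00169), but its unexposed values of 3.48 to 3.93 lay below the array medians, so the size of that change is uncertain.

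Among the C1r and C1s genes, C1ra lies in a row with C1rl, C1s1 and C1rb on chromosome 6, where C1rl, a C1r-like protease, fell. C1rl ranged from 6.41 to 6.85 after exposure and from 7.17 to 7.46 without it, with no overlap, and its log2 change was -0.69 (SE 0.11, adjusted p = 0.00169). C1s1 changed by 0.37 (adjusted p = 0.218) and C1rb by 0.23 (adjusted p = 0.437), and neither was tested against C1q. C1ra and C1rb are close copies whose signals may not be fully separated. The inhibitor of C1r and C1s, Serping1, stood at 11.01 to 11.34 after exposure and 10.47 to 11.06 without it. It rose by 0.45 (adjusted p = 0.0456) and kept its call in 2 of the 10 fits without 1 mouse, when exposed mouse 1 or unexposed mouse 3 was dropped, with adjusted p from 0.0302 to 0.102.

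On the alternative route, Cfp, which encodes properdin, the stabiliser of the convertase that factor B forms, rose while Cfb fell. Cfp ranged from 6.98 to 7.69 after exposure and from 6.37 to 6.76 without it, a change of 0.67 (SE 0.14, adjusted p = 0.00909). Among the terminal components C7, which anchors the growing pore in the membrane, rose by 1.39 (SE 0.23, adjusted p = 0.00282), from 4.85 to 5.82 in unexposed to 6.02 to 7.28 in exposed mice. Hc, the gene of C5 itself, spanned 3.64 to 3.97 in unexposed and 3.49 to 4.00 in exposed animals and changed by -0.14 (adjusted p = 0.513). The other 5 terminal genes did not pass. C5 protein, C5a and the membrane pore were not measured. The rises of C5ar1 and C7 transcripts therefore do not show that C5a or the pore was formed in these mice.

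Receptors for fragments of C3 rose in part. Itgam, the alpha chain of complement receptor CR3 on myeloid cells, spanned 6.63 to 8.12 in exposed and 5.32 to 6.37 in unexposed animals and rose by 1.33 (SE 0.27, adjusted p = 0.00855). Like C3ar1 and C5ar1, it was highest in exposed mouse 3 and lowest of its group in exposed mouse 1. C4b and the fibroblast sum had the same extremes, so these are not particular to the receptors. Vsig4, a receptor for C3b on resident macrophages, was 5.15, 4.14, 4.60, 5.41 and 6.03 in exposed mice 1 to 5 and 3.21 to 4.28 in unexposed mice. Its change was 1.38 (SE 0.32, adjusted p = 0.0178), with the groups overlapping through exposed mouse 2, and exposed mouse 5 was highest. Its unexposed values lay below the array medians, so the size of its change is uncertain, and it did not pass when tested against a 1.2-fold change. Itgax, the alpha chain of CR4, changed by -0.27 (adjusted p = 0.278), and the shared beta chain Itgb2 by 0.65 (adjusted p = 0.137).

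**Figure D4:**
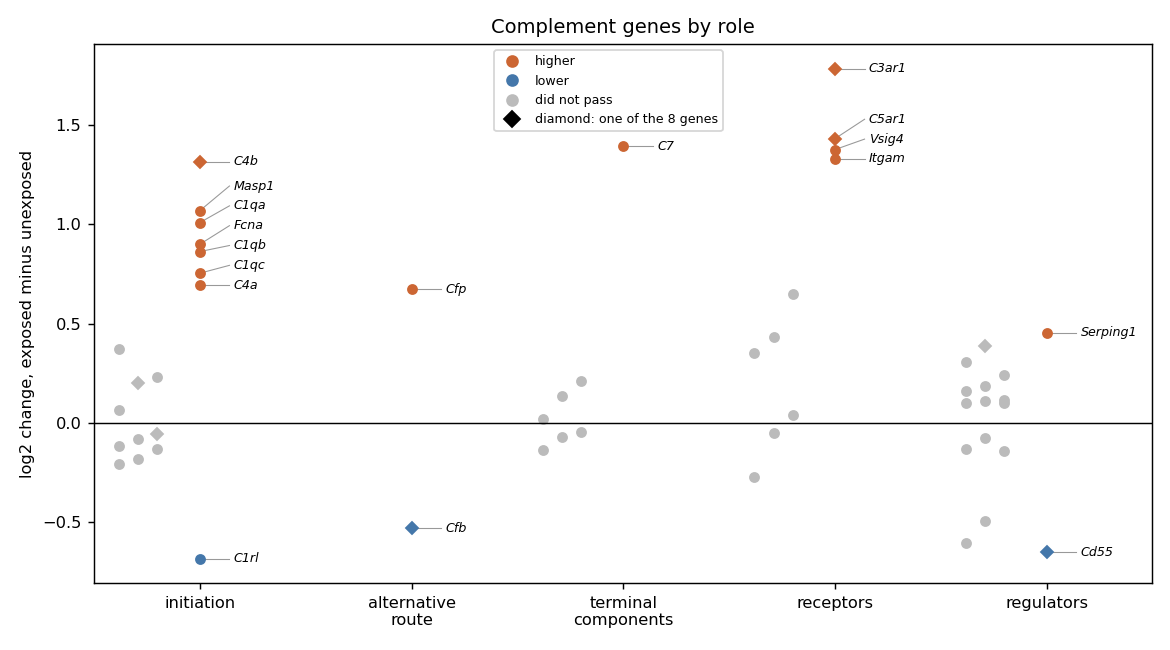
Log2 change, exposed minus unexposed (vertical axis), of the 8 measured complement genes (diamonds) and of 45 other genes of the pathway (circles), grouped by role along the horizontal axis; orange rose, blue fell and grey did not pass, and only called genes are named. The 6 other initiation genes that rose lie between 0.69 and 1.07, while the 6 terminal components in grey lie between -0.14 and 0.21.

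Plasma proteins of the liver were looked at because most circulating complement is made there. Of 5 hepatocyte markers, 1 rose, Ahsg, the fetuin gene, from 4.03 to 4.38 in unexposed to 4.91 to 6.12 in exposed mice (change 1.15, adjusted p = 0.00491), and 0 fell. The unexposed values of Ahsg lay below the array medians, and the sum of the list was 6.81 to 7.29 after exposure against 6.67 to 6.76 without it. Alb spanned 3.70 to 4.17 in exposed and 3.75 to 4.37 in unexposed animals, below the array medians. The fibroblast markers, listed because fibroblasts can make C4 and C1r, rose for 3 of 6 (Col3a1, Col1a1 and Pdgfra; Col1a1 lost its call without exposed mouse 4 and Pdgfra without unexposed mouse 1 or 5), and their sum overlapped between groups (13.31 to 13.84 exposed, 13.14 to 13.40 unexposed). The part of hepatocyte products and of fibroblasts in the C4b values was not tested.

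Genes whose 10 values lay nearest to those of a member, each centred on its unexposed mean, were found by root mean square difference on the log2 scale over all 22180 genes. Nearest to C3ar1 were the macrophage scavenger receptor Msr1 (0.266), Cd68, a lysosomal protein of macrophages (0.298), and Stfa2l1 (0.362). Nearest to C5ar1 were the myeloid receptor Pirb (0.221), the lysosomal protease Lgmn (0.236) and the platelet chemokine Pf4 (0.238). Close to C4b lay Mucl3 (0.167), the oncostatin M receptor Osmr (0.171) and the Golgi mannosidase Man2a1 (0.172). To Cd55 the closest were the interleukin 1 receptor-associated kinase Irak2 (0.122), Tmc7 (0.142) and Pgm2l1 (0.150). For Cfb they were Klri1 (0.124), Mir344 (0.141) and Vmn1r149 (0.145), of which only Mir344 passed the test itself (-0.57, adjusted p = 0.0179). These distances rest on 10 mice and mostly on the difference between the groups.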

How the data were processed

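The deposited values are log2 intensities per probe set from Affymetrix arrays (WT Plus labelling, per the labels' protocols), which the authors, according to the submitters' processing notes, summarised by RMA with Partek 6.6. Their log base was read from their range. RMA settings and genome build: not given in the sources used here. Of 41345 probe sets, 23521 had 1 symbol in the platform annotation, 1814 several and 16010 none. A gene's value was the mean of its single-symbol probe sets, which gave 22180 genes. Groups were compared in limma 3.58.1 (R 4.3.3; lmFit, eBayes, no covariate), with p adjusted over all genes by Benjamini-Hochberg and called under 0.05; 95% intervals come from that fit. Members of pairs were compared within arrays by exact permutation over 252 relabellings, whose smallest p is 0.00794; the planned pair of C3 and C4b was not analysed here. The fit was tested on simulated data. All 8 measured members were named, as were called pathway genes and C1qa, Serping1, Hc and Itgam; any other gene was chosen for naming with its value known. Members, lists and motifs were chosen with earlier results of these data known. The alternatives were other normalizations, a filter on dim genes, other probe set choices, eBayes settings, array weights, a block, a covariate, other thresholds and mice left out. Replicates are separate mice, and their number limits the precision. Python 3.11.15, pandas 2.3.3 and matplotlib 3.10.9 were used for tables and figures. The pathway list held other genes that were not analysed here.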

Additional observations from a re-analysis of the deposited data

Results flagged for a closer look

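In 42 groups of 5 mice, from 21 genes named above, 3 had 1 mouse far from the others by Dixon's criterion, and chance gives about 1 in 20 groups. C2 was 4.32 in unexposed mouse 2, beside 5.17 to 5.50 in the other unexposed mice. Cd55 was 6.88 in unexposed mouse 5, beside 7.50 to 7.68 in the other unexposed mice. Hc was 4.00 in exposed mouse 3, beside 3.49 to 3.63 in the other exposed mice.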

How the results depend on the processing

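The 3 called rises among the members (C4b, C3ar1 and C5ar1) numbered 3 under every alternative, including an adjusted p under 0.01. The 2 falls became 1 with arrays centred on their medians, with array weights and without exposed mice 1 and 3 together, each time through the loss of Cfb, and 0 at an adjusted p under 0.01 or when tested against a 1.2-fold change; with 1 mouse left out they numbered 1 to 2. Of 167 alternative values of single members, 150 kept direction and side of the threshold, 14 lost the call (13 of Cfb and 1 of Cd55) and 3 changed sign: C1ra without exposed mouse 1 (0.0236) or unexposed mouse 4 (0.0177), within -0.177 to 0.0236 over the mice left out, and C2 without unexposed mouse 2, within -0.00126 to 0.293. The 11 rises of other pathway genes became 6 when tested against a 1.2-fold change, and the 1 fall became 2 with the filter on dim genes or array weights, and 1 to 2 with 1 mouse left out. The filter on dim genes removed C2 and, of the called pathway genes, Masp1, C4a and Vsig4. With 1 mouse left out, Cfb minus C2 was -0.889 to -0.42 and Cd55 minus Cd59a -1.26 to -0.933; the former lost its call without any of exposed mice 1 to 5 or unexposed mouse 2. With the mouse number as a replicate block 3 members rose and 2 fell, and C4a and Serping1 lost their calls. The labels do not say that mice of 1 number were paired. Their deviations correlated at -0.0488 to 0.125 across genes, and 1 of 5 exposed mice correlated best with its own number. With 5 mice per group, these correlations cannot show whether mice of 1 number were handled together. No detection limit bounds low values such as those of Masp1 and Hc.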
